A study of Homo sapiens with 12 samples.

Results

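The genes described here are 3 protein kinase genes that the study named as candidate effectors of the transcription factor NRF2, FAM20B, SRPK1 and VRK1, together with 5 of their paralogs, FAM20A, FAM20C, SRPK2, VRK2 and VRK3. They were taken by gene symbol from the 57815 genes of the expression files, and all 8 were found, each as 1 protein-coding gene. RNA-seq profiles were made of 12 libraries. They come from 3 lines of human non-small cell lung cancer, A549 and H2023 (lung adenocarcinoma) and H460 (lung large cell carcinoma), all of which carry a KEAP1 mutation. KEAP1 is the ubiquitin ligase adaptor that keeps NRF2 low, and NRF2 is therefore high in such lines. In each line, 2 libraries came from cells given control siRNA and 2 from cells given NRF2 siRNA, and RNA was taken after 48 h. Of the NRF2 siRNA libraries of a line, 1 received siRNA 28 and 1 received siRNA 30, so the spread within that group includes the difference between the siRNAs. A549 cells were grown in high glucose medium and their RNA was freed of ribosomal RNA, while H2023 and H460 cells were grown in low glucose medium and their RNA was selected for polyA. Levels in A549 are therefore not set against levels in the other lines.

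The FAM20 proteins are kinases of the secretory pathway. FAM20B phosphorylates the xylose that links glycosaminoglycan chains to proteoglycans, FAM20C is the Golgi casein kinase that phosphorylates many secreted proteins, and FAM20A is a pseudokinase that works as a partner of FAM20C. SRPK1 and SRPK2 phosphorylate the arginine and serine rich domains of splicing factors and so govern their entry into the nucleus. VRK1 is a nuclear kinase of barrier-to-autointegration factor (BAF) and of histone H3 that is high in dividing cells. VRK2 is anchored in the membranes of the endoplasmic reticulum and nuclear envelope, and VRK3 is regarded as a pseudokinase.

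On the GRCh37 assembly FAM20B (ENSG00000116199.7) lies at chr1:178994939-179045702 on the plus strand, SRPK1 (ENSG00000096063.10) at chr6:35800743-35889119 on the minus strand and VRK1 (ENSG00000100749.3) at chr14:97263641-97421183 on the plus strand. Of the paralogs, FAM20A is at chr17:66531254-66597508 on the minus strand, FAM20C at chr7:192969-300711 on the plus strand and SRPK2 at chr7:104751151-105039755 on the minus strand. VRK2 is at chr2:58134764-58387055 on the plus strand and VRK3 at chr19:50479725-50529203 on the minus strand. No paralogs are neighbours.

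Promoter windows of RefSeq genes, 300 bases long with 250 bases before and 50 after a transcript start, were available for 6 of the 8 genes, in 12 windows. VRK1 and FAM20A had no entry. The windows were searched on both strands for TGACNNNGC, the core of the antioxidant response element that NRF2 binds, for TGAGNNNGC, which differs from it at 1 letter, and for TGACTCA, the AP-1 element. TGACNNNGC stood in 13.3% of all 35116 windows and in none of the 12. TGAGNNNGC stood in 18.3% of all windows and in 1 of the 12, that of SRPK1, and TGACTCA in 4.95% of all windows and in none of the 12. No 2 matches overlapped. The 250 bases before the start are shown for SRPK1 and FAM20B, which were lower with NRF2 siRNA, and for FAM20C, which rose in H460, 5′ to 3′ along the gene. The starts are those of RefSeq transcripts and differ from the gene bounds given above, so the FAM20B window and nearly all of the SRPK1 window lie within those bounds, and the FAM20C window lies upstream of them. Capitals mark the match of TGAGNNNGC, which begins 43 bases before the transcript start of SRPK1.
SRPK1, chr6:35888876-35889125, minus strand: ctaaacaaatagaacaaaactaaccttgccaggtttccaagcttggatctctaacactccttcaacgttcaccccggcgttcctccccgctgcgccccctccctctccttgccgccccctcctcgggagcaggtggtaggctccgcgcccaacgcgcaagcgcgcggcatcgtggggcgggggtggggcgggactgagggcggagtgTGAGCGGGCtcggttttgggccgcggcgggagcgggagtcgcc
FAM20B, chr1:178995009-178995258, plus strand: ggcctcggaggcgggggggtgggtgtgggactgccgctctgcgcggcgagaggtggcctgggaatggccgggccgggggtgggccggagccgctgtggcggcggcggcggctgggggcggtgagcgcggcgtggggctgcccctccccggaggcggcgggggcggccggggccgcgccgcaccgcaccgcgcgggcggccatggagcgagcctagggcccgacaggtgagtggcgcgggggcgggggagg
FAM20C, chr7:192321-192570, plus strand: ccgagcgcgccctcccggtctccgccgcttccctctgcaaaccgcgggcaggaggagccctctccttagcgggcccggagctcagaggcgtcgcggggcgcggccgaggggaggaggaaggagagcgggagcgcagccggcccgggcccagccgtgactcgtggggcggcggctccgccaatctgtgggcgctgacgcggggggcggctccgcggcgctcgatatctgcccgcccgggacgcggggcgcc
G and C made up 66.8% of the SRPK1 bases, 83.6% of the FAM20B bases and 78.4% of the FAM20C bases. A match of letters is given as a description, and binding was not measured here. The study counted an enhancer at the FAM20B locus among its NRF2-dependent enhancers, and enhancers were not searched here.

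Levels are FPKM, fragments scaled to transcript length and sequencing depth, as computed by the authors, so that genes can be compared within a library. In each library 12732 to 13909 genes reached 1 FPKM. Read totals are not given with the FPKM values, but the smallest steps between low values placed the libraries of a line at 92.6% to 107% of the depth of its first control library. The labels were checked on NFE2L2, the gene of NRF2. Its level was 34.5 ± 5.16 FPKM (SD, n = 2) in A549 control cells and 6.58 ± 1.79 with NRF2 siRNA, 119 ± 1.06 and 7.27 ± 0.663 in H2023, and 122 ± 31.7 and 9.36 ± 3.99 in H460. Transcripts of the mitochondrial genome made up 0.892% to 1.56% of the FPKM sum in A549. They made up 12% and 18.1% in H2023 control libraries against 17.3% and 22.8% with NRF2 siRNA, and 8.56% and 13.1% in H460 control libraries against 20.8% and 26.0%. Because this share moved with the siRNA in H460, changes of the members and counts of the lists in that line are also given with these transcripts left out and the rest rescaled, a fit in which 3.61% of genes were called lower and 7.57% higher. The rescaling set every library to the same total, while the FPKM sums used elsewhere ran from 6.388e+05 to 1.159e+06. Changes given for this fit therefore include that rescaling. Of 10 lung epithelial markers, 6 reached 1 FPKM in every library of A549 and of H2023 and 4 in every library of H460, all 4 of them keratins, while NKX2-1, SFTPB and SFTPC stayed under 1 FPKM everywhere. Of 7 markers of blood, endothelial and stromal cells, PTPRC, CD3E, VWF and COL1A2 were under 1 FPKM in all libraries. CD68, a macrophage marker, was over 1 FPKM in all of them, with 14.0 and 15.6 FPKM in the A549 controls against 26.6 and 30.7 with NRF2 siRNA, 48.2 and 43.1 against 57.7 and 45.7 in H2023, and 36.6 and 39.2 against 16.5 and 29.2 in H460. The stromal marker COL1A1 reached 7.61 FPKM in H2023 and 5.94 in H460, and PDGFRB reached 3.97 in H460. The part of these markers in the results was not tested.

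The first question was how FAM20B, SRPK1 and VRK1 stood in each library. The study picked these 3 genes as lower after NRF2 knockdown in these libraries, so their own fall is a description and no test is given for it. Its further criteria were no induction by diethylmaleate in other lines and a correlation with NRF2 activity in tumours. All 3 were lower in both NRF2 siRNA libraries than in both control libraries in each of the 3 lines. Of the 11571 genes expressed in every line, 7.20% had this pattern, and nothing is read from the count of 3 because the choice used it.

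FAM20B, the xylose kinase, was at 23.2 and 21.0 FPKM in the A549 control libraries, 14.9 with siRNA 28 and 13.8 with siRNA 30. In H2023 it was at 18.5 and 16.0 in the controls, 10.6 with siRNA 28 and 7.09 with siRNA 30. In H460 it was at 29.9 and 39.3 in the controls, 15.0 with siRNA 28 and 13.4 with siRNA 30. The level was lowest with siRNA 30 in every line, and the mean with NRF2 siRNA was 64.8% of the control mean in A549, 51.3% in H2023 and 41.0% in H460. On the scale of log2(FPKM + 1) the change was -1.22 ± 0.25 (SE, 2 libraries a group) in H460, -0.91 ± 0.25 in H2023 and -0.59 ± 0.14 in A549.

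SRPK1, the splicing factor kinase, was the most abundant of the 3 in every control group. It was at 50.0 and 51.0 FPKM in the A549 control libraries, 34.3 with siRNA 28 and 39.3 with siRNA 30. H2023 had 40.1 and 44.3 in the controls, 26.0 with siRNA 28 and 27.2 with siRNA 30. H460 had 65.0 and 54.9 in the controls, 22.6 with siRNA 28 and 17.2 with siRNA 30. The highest NRF2 siRNA library of H460 stood at 22.6 FPKM and the lowest control at 54.9, and the mean was 33.1% of control there, against 72.8% in A549 and 63.0% in H2023. On the log2 scale SRPK1 changed by -1.55 ± 0.24 (SE) in H460, -0.64 ± 0.16 in H2023 and -0.45 ± 0.14 in A549.

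VRK1, the nuclear kinase of BAF, was at 32.3 and 29.8 FPKM in the A549 control libraries, 24.1 with siRNA 28 and 18.4 with siRNA 30. H2023 had 9.65 and 8.68 in the controls, 4.25 with siRNA 28 and 3.63 with siRNA 30. H460 had 13.8 and 14.2 in the controls, 4.51 with siRNA 28 and 1.95 with siRNA 30. VRK1 was the lowest of the 3 with NRF2 siRNA in H2023 and H460, where the mean was 43.0% and 23.1% of control, against 68.4% in A549. On the log2 scale VRK1 changed by -1.89 ± 0.36 (SE) in H460, -1.04 ± 0.21 in H2023 and -0.54 ± 0.17 in A549. The H460 changes with mitochondrial transcripts left out were -1.87 for VRK1, -1.42 for SRPK1 and -1.09 for FAM20B.

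**Figure D1:**
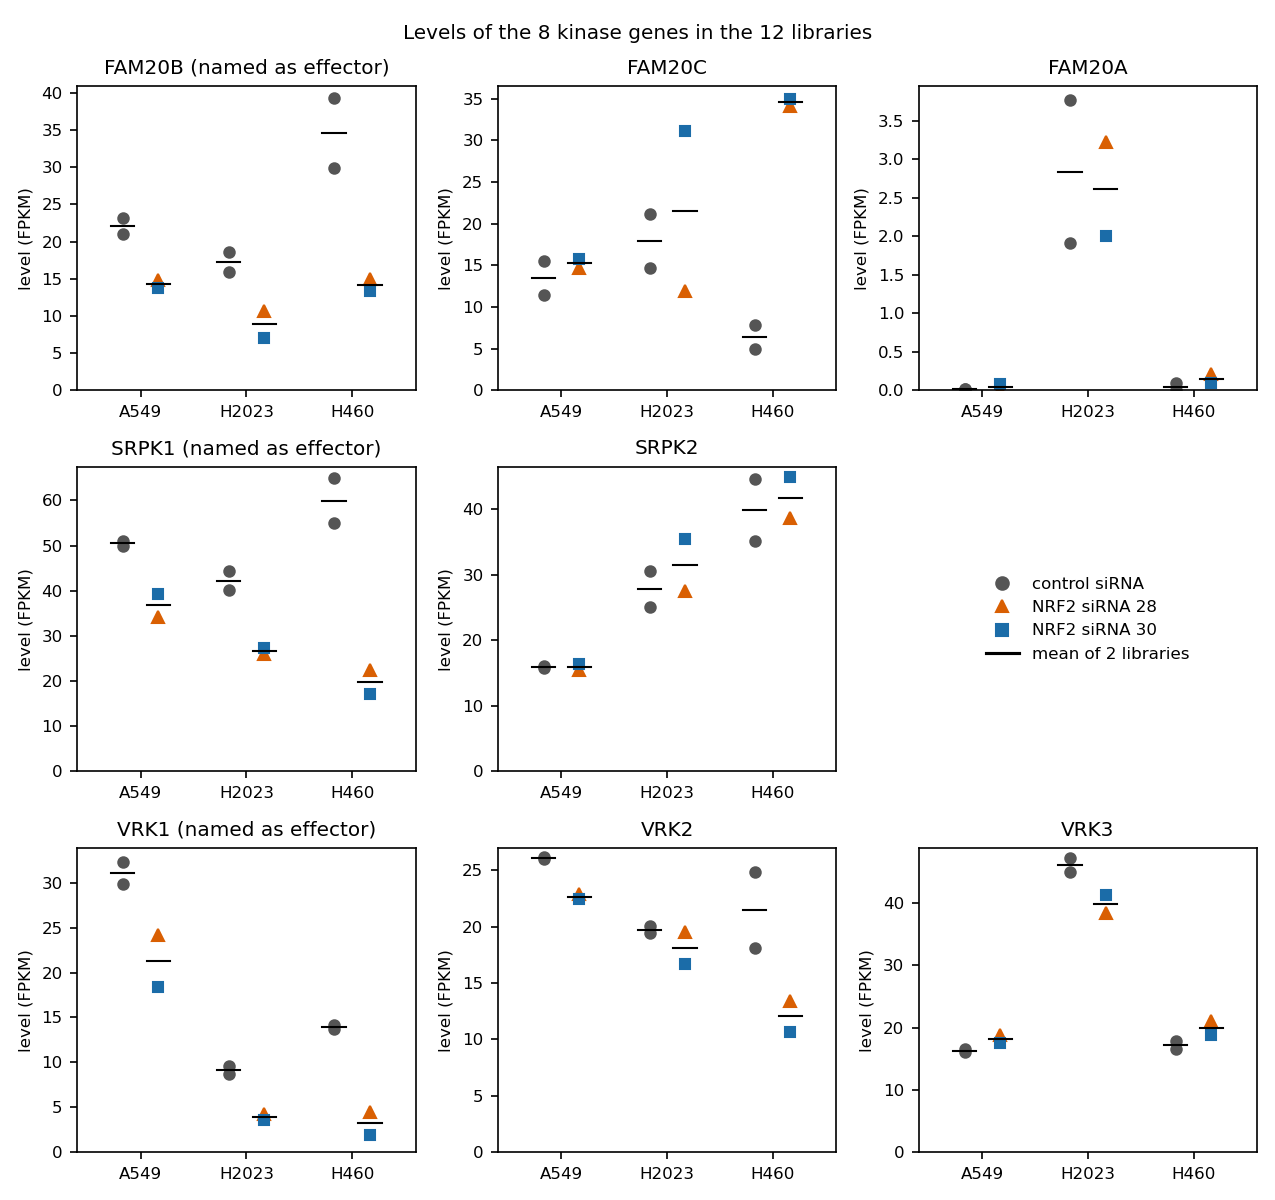
Levels in FPKM (vertical axes, each from 0) of the 8 kinase genes in A549, H2023 and H460; circles are control siRNA libraries, triangles NRF2 siRNA 28, squares NRF2 siRNA 30, and bars the mean of 2 libraries. FAM20B, SRPK1 and VRK1 are lower with NRF2 siRNA in all 3 lines, while FAM20C in H460 goes from 4.95 and 7.85 to 34.1 and 35.0 FPKM.

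The paralogs were taken by family membership, with earlier results of these data known, and they were tested with limma over all genes of a line, with p-values adjusted over all of them (called at an adjusted p under 0.05). In A549 none of the 4 paralogs tested was called, in H2023 none of 5, and in H460 1 of 4, FAM20C. The share of all tested genes called was 0.676% in A549 (0.554% lower and 0.122% higher), 0.910% in H2023 (0.583% and 0.327%) and 14.0% in H460 (6.86% and 7.12%). At an unadjusted p under 0.05 there were 0 paralogs in A549, 0 in H2023 and 2 in H460, while 13.3%, 16.9% and 33.7% of all tested genes were at such a p in these lines. Counts at an unadjusted p given below for lists stand against the same shares.

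FAM20C, the Golgi casein kinase, was the member that rose. In H460 it was at 4.95 and 7.85 FPKM in the control libraries, 34.1 with siRNA 28 and 35.0 with siRNA 30, and the groups lay far apart. The mean rose 5.40-fold, from 6.40 ± 2.05 to 34.5 ± 0.669 FPKM (SD, n = 2), a log2 change of 2.29 ± 0.28 (SE, adjusted p = 0.0143) that was at percentile 99.3 of all changes in the line. The change was 2.50 (adjusted p = 0.0136) with mitochondrial transcripts left out. The call rested on both control libraries, since it was lost without control library 0 (2.01, adjusted p = 0.122) or without control library 1 (2.58, adjusted p = 0.0729), and also with no filter on low values (adjusted p = 0.112).

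In the other lines FAM20C did not pass the test. It was at 15.5 and 11.5 FPKM in the A549 control libraries and 14.7 and 15.8 with siRNA 28 and 30, a log2 change of 0.18 ± 0.18 (SE, adjusted p = 0.729). H2023 had 14.7 and 21.2 in the controls, 11.9 with siRNA 28 and 31.1 with siRNA 30. Here the siRNAs lay on opposite sides of the controls, and the change was 0.13 ± 0.46 (SE, adjusted p = 0.923). A test of whether the change differed between the lines gave an adjusted p of 0.0659 for FAM20C, while 2.51% of genes passed it. It passed when either NRF2 siRNA library of H2023 was left out, with adjusted p = 0.0261 without the siRNA 28 library and 0.0255 without the siRNA 30 library.

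FAM20A, the pseudokinase, was at 0.212 FPKM or less in every library of A549 and H460 and was not tested there. H2023 had 3.76 and 1.91 FPKM in the controls, 3.22 with siRNA 28 and 2.01 with siRNA 30. These groups overlapped, and the log2 change was -0.06 ± 0.34 (SE, adjusted p = 0.948).

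SRPK2, the close paralog of SRPK1, kept overlapping groups in all 3 lines. It was at 15.8 and 16.0 FPKM in the A549 control libraries and 15.4 and 16.3 with siRNA 28 and 30. H2023 had 25.1 and 30.5 in the controls and 27.5 and 35.4 with siRNA 28 and 30. H460 had 44.6 and 35.1 in the controls and 38.6 and 44.9 with siRNA 28 and 30. In H460 the log2 change was 0.07 ± 0.23 (SE, adjusted p = 0.860), in H2023 0.17 ± 0.21 (adjusted p = 0.737) and in A549 -0.0037 ± 0.13 (adjusted p = 0.993), and each of these changes crossed 0 when some single library was left out.

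VRK2, the membrane-anchored kinase, was lower in both NRF2 siRNA libraries than in both controls in A549 and H460, a pattern seen in 20.5% and 31.6% of all tested genes. It was at 26.2 and 25.9 FPKM in the A549 controls and 22.9 and 22.4 with siRNA 28 and 30 (log2 change -0.20 ± 0.13, SE, adjusted p = 0.576). H2023 had 19.4 and 20.0 in the controls and 19.5 and 16.7 with siRNA 28 and 30 (-0.12 ± 0.18, adjusted p = 0.783). H460 had 24.8 and 18.1 in the controls and 13.4 and 10.7 with siRNA 28 and 30, 56.1% of control. The H460 change of -0.78 ± 0.27 (SE) did not pass the test (adjusted p = 0.10), although it passed in a fit of all 12 libraries together (adjusted p = 0.00992). That fit called 4585 of the 13446 genes in H460, against 1879 in the fit of the line alone.

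VRK3 differed between the lines in the side on which its groups lay. It was at 16.0 and 16.6 FPKM in the A549 controls and 18.8 and 17.5 with siRNA 28 and 30 (log2 change 0.14 ± 0.14, SE, adjusted p = 0.701). H2023 had 47.2 and 44.9 in the controls and 38.4 and 41.2 with siRNA 28 and 30 (-0.21 ± 0.15, adjusted p = 0.556). H460 had 17.8 and 16.5 in the controls and 21.1 and 18.9 with siRNA 28 and 30 (0.20 ± 0.23, adjusted p = 0.574). Non-overlapping groups on the higher side were seen in 25.2% of genes in A549 and 31.1% in H460, and on the lower side in 22.0% in H2023, where 27.0% lay on the higher side. The H460 log2 changes with mitochondrial transcripts left out were 0.36 for VRK3 (adjusted p = 0.398), -0.65 for VRK2 (adjusted p = 0.188) and 0.22 for SRPK2 (adjusted p = 0.554). The test of a difference between the lines gave an adjusted p of 0.400 for VRK3, 0.260 for VRK2 and 0.917 for SRPK2.

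**Figure D2:**
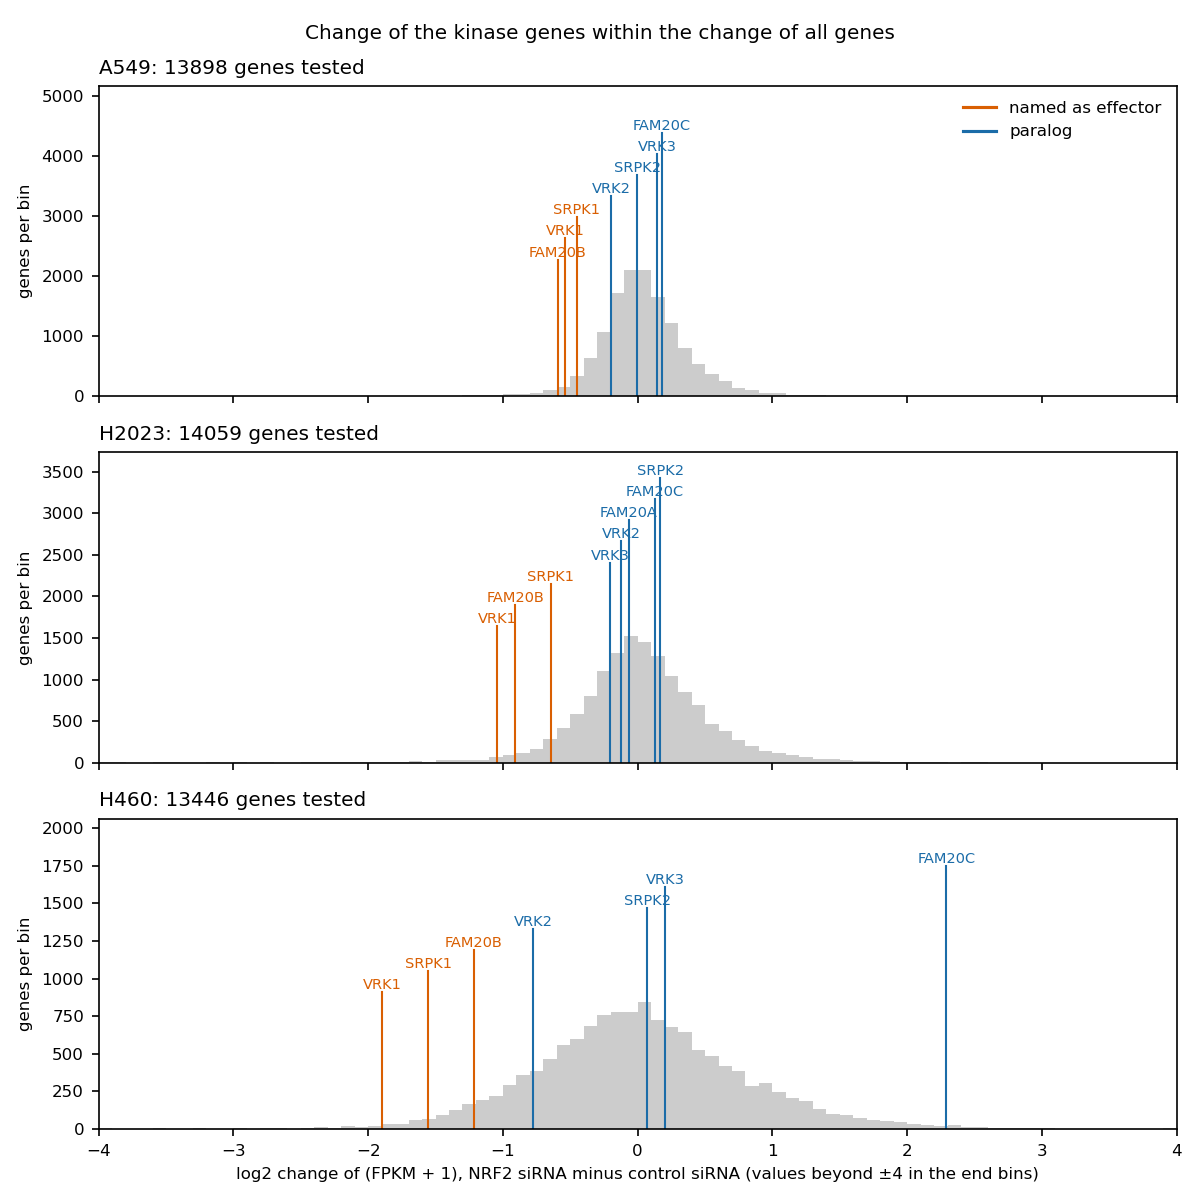
Number of tested genes per bin of log2 change of (FPKM + 1), NRF2 siRNA minus control siRNA, in each line, with lines marking the members (orange, named as effectors; blue, paralogs; FAM20A was tested in H2023 only). SRPK2 and VRK3 lie near the centre in all 3 lines, and FAM20C lies at 2.29 in H460.

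The next question was how each effector stood against its paralogs. The log2 ratio of (FPKM + 1) was taken in each library. A scaling shared by the genes of a library cancels in the ratio of FPKM itself, but only in part once 1 is added to low values, as for FAM20A. As the effectors were chosen for their fall, the ratios are given with no test.

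SRPK1 exceeded SRPK2 in all 6 control libraries. The ratio of FPKM was 1.60 and 1.45 in the H2023 controls and fell below 1 with NRF2 siRNA, at 0.946 with siRNA 28 and 0.770 with siRNA 30. In H460 it was 1.46 and 1.56 in the controls, 0.585 with siRNA 28 and 0.382 with siRNA 30. In A549 it was 3.16 and 3.19 in the controls, 2.22 with siRNA 28 and 2.40 with siRNA 30. The order of the SRPK genes was thus turned in H2023 and H460 and kept in A549, and the change in log2 ratio was -1.62 ± 0.30 (SE, n = 2 a group) in H460, -0.81 ± 0.16 in H2023 and -0.45 ± 0.06 in A549.

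The order of FAM20B and FAM20C was turned in H460, where the FPKM ratio of FAM20B to FAM20C was 6.03 and 5.01 in the controls, 0.439 with siRNA 28 and 0.383 with siRNA 30. The change in log2 ratio was -3.51 ± 0.13 (SE), made up of the rise of FAM20C by 2.29 and the fall of FAM20B given before. In A549 the FPKM ratio was 1.50 and 1.83 in the controls, 1.01 with siRNA 28 and 0.872 with siRNA 30, a change in log2 ratio of -0.77 ± 0.17. H2023 had 1.26 and 0.754 in the controls, 0.890 with siRNA 28 and 0.228 with siRNA 30. These groups overlapped, and the change of -1.04 ± 0.98 was within the spread between libraries. Against FAM20A the log2 ratio of FAM20B changed by -0.63 ± 0.13 in A549, -0.84 ± 0.25 in H2023 and -1.35 ± 0.13 in H460, but FAM20A was near 0 FPKM in A549 and H460.

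VRK1 was above VRK2 in the control libraries of A549 and in its siRNA 28 library, and below VRK2 in all other libraries. The log2 ratio of VRK1 to VRK2 was 0.29 and 0.20 there, 0.08 with siRNA 28 and -0.27 with siRNA 30. H2023 had an FPKM ratio of 0.496 and 0.433 in the controls, 0.218 with siRNA 28 and 0.217 with siRNA 30. H460 had 0.555 and 0.784 in the controls, 0.337 with siRNA 28 and 0.182 with siRNA 30. The change in log2 ratio was -1.12 ± 0.38 (SE) in H460, -0.92 ± 0.09 in H2023 and -0.34 ± 0.18 in A549. Against VRK3 it was -2.10 ± 0.38, -0.84 ± 0.14 and -0.68 ± 0.16 in the same order.

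**Figure D3:**
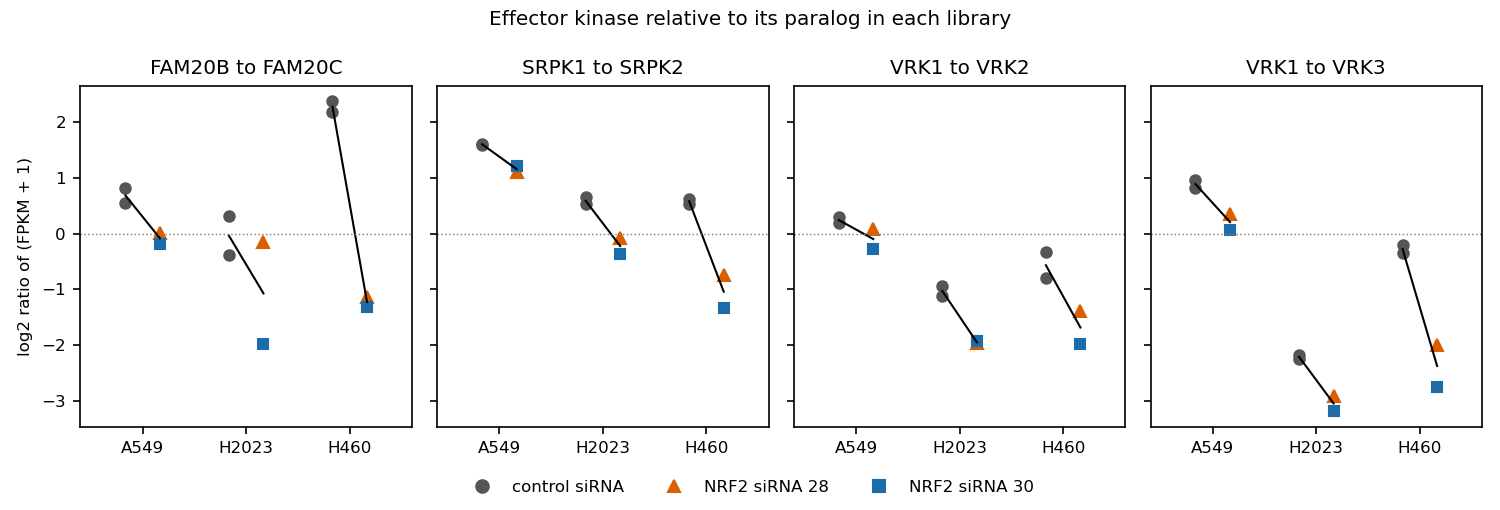
Log2 ratio of (FPKM + 1) of each effector kinase to a paralog (vertical axis) in each library of A549, H2023 and H460; symbols mark the siRNA, lines join the group means, and the dotted line is an equal level. Groups overlap for FAM20B to FAM20C in H2023, where the changes of the siRNAs differ, and lie apart elsewhere in the plot, from which nothing is read because the effectors were chosen as lower. FAM20B to FAM20A is not drawn.

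Within a line the order of the levels was as follows. In A549 control cells the order was SRPK1, VRK1, VRK2, FAM20B, VRK3, SRPK2, FAM20C and FAM20A, and no neighbours in this order overlapped, VRK3 and SRPK2 by a narrow margin. With NRF2 siRNA, VRK2, VRK1 and VRK3 overlapped from one to the next, SRPK2, FAM20C and FAM20B overlapped from one to the next, and SRPK1 stayed first. In H2023 control cells VRK3 stood first at 46.1 ± 1.62 FPKM (SD), then SRPK1 at 42.2 ± 2.98 and SRPK2 at 27.8 ± 3.81, while VRK2, FAM20C and FAM20B overlapped from one to the next. With NRF2 siRNA in H2023, VRK3 and SRPK2 came before SRPK1, and SRPK1, FAM20C and VRK2 overlapped from one to the next. In H460 control cells SRPK1 came first at 59.9 ± 7.15 FPKM, SRPK2 and FAM20B overlapped behind it, and FAM20C was seventh of 8. With NRF2 siRNA in H460, SRPK2 at 41.7 ± 4.51 and FAM20C at 34.5 ± 0.669 led, VRK3 and SRPK1 overlapped at 20.0 ± 1.56 and 19.9 ± 3.80, and VRK1 was seventh at 3.23 ± 1.81.

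The control cells of H2023 and H460, whose libraries were made alike, were compared with the same test. Between these lines 48.8% of all genes were called, 24.2% lower and 24.6% higher in H460, so a call of a member is common. FAM20B, SRPK1 and VRK1 are given with no test here, because these control libraries entered their choice. FAM20B was higher in H460 by 0.95 ± 0.18 on the log2 scale (SE), SRPK1 by 0.49 ± 0.15 and VRK1 by 0.56 ± 0.16. Without control library 1 of H2023 the difference of FAM20B was 0.85. With mitochondrial transcripts left out and the rest rescaled, the difference was 0.28 for SRPK1 and 0.38 for VRK1. In that fit 29.9% of genes were lower and 16.6% higher in H460. In H460 the log2 level of VRK3 was lower by 1.37 (adjusted p = 0.000874), and it passed in all 8 alternative settings. FAM20C differed by -1.36 ± 0.27 (adjusted p = 0.00909), lower in H460, a call lost with no filter on low values (adjusted p = 0.0912). FAM20A, at 3.76 and 1.91 FPKM in the H2023 controls, was at 0.0032 and 0.0962 in those of H460, and no test is given because it reached the filter through H2023 alone. SRPK2 (0.50 ± 0.18, adjusted p = 0.0624) and VRK2 (0.10 ± 0.19, adjusted p = 0.692) did not pass, although SRPK2 passed without control library 1 of H460 (0.67, adjusted p = 0.0179). Line, histological type and any culture difference cannot be told apart with 1 line of each type.

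The 2 siRNAs were compared over the 6 NRF2 siRNA libraries with the line as a term in limma. FAM20A reached the filter through H2023 alone, and no test of it is given. None of the other paralogs was called, and 0% of the 15716 genes were called, with 2853 genes (18.2%) and none of these paralogs at an unadjusted p under 0.05. The study took the 2 siRNAs as duplicates when it picked FAM20B, SRPK1 and VRK1, so the spread between the siRNAs entered the choice. Their differences are therefore given with no test. VRK1 was higher with siRNA 28 than with siRNA 30 in 3 of 3 lines (log2 difference 0.49 ± 0.20, SE), and so was FAM20B (0.26 ± 0.16). The difference was 0.28 for VRK1 without either NRF2 siRNA library of H460 and 0.12 for FAM20B without either of H2023. FAM20C was lower with siRNA 28 in 3 of 3 lines (-0.48 ± 0.28, adjusted p = 0.413), mostly through H2023. SRPK1 had no common side (0.04 ± 0.16). The differences of the other members were -0.22 for SRPK2 (adjusted p = 0.432), 0.18 for VRK2 (adjusted p = 0.527) and 0.05 for VRK3 (adjusted p = 0.857).

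The genes that work with the kinases were then described by lists. In A549 and H2023 nearly no list gene was called, and in H460, where more genes were called, several were. Of the 20 genes named below as called in H460, 0 were called without control library 0, 0 without control library 1 and 0 with no filter on low values, while all 20 were called without the siRNA 28 library and 19 without the siRNA 30 library. With mitochondrial transcripts left out 16 were called, CHEK1, GPC1, LBR and TRA2B being the others. Without the trend in limma 17 were called, XYLT2, LBR and TRA2B being the others. The shares of all genes called in each line, given with the paralogs, are the background of every count of called list genes. Over all genes the median log2 change was -0.00834 in H460, 0.0195 in H2023 and 0.0224 in A549.

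Genes around FAM20B were taken as enzymes that build or modify the linkage region or that start or extend the glycosaminoglycan chains. The core proteins that carry the chains were also taken. Of the 14 enzymes tested in H460, 2 rose and none fell, with a list median of 0.63, while 7.12% of all genes rose and 6.86% fell. With mitochondrial transcripts left out 3 rose and the median was 0.79, the added gene being XYLT1, the other xylosyltransferase (1.77, adjusted p = 0.042, against 1.54 and 0.0525 with them). CHPF, a chondroitin polymerizing factor, rose by 1.76 ± 0.27 on the log2 scale (SE, adjusted p = 0.0196), from 18.6 ± 0.126 to 67.2 ± 20.8 FPKM (SD). XYLT2, a xylosyltransferase that adds the xylose on which FAM20B acts, rose by 1.18 ± 0.28 (SE, adjusted p = 0.0436), a 2.32-fold higher mean FPKM. None of 13 enzymes was called by limma in A549 or in H2023, with 0 and 1 at an unadjusted p under 0.05 and medians of 0.08 and 0.27. The 2 most abundant in the controls were CSGALNACT1 and EXT2 in A549 (log2 changes 0.24 and 0.05) and EXT1 and CSGALNACT1 in H2023 (0.27 and -0.63). The fall of CSGALNACT1 came from 1 library, as it was at 34.5 and 30.9 FPKM in the H2023 controls, 36.0 with siRNA 28 and 11.7 with siRNA 30.

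Of the 8 proteoglycan core proteins tested in H460, 3 rose and 1 fell, beside 7.12% and 6.86% of all genes. SDC3 rose by 2.44 ± 0.38 (SE, adjusted p = 0.0196) and SDC2 by 2.40 ± 0.27 (adjusted p = 0.0127), both syndecans of the cell surface. AGRN, agrin, a basement membrane heparan sulfate proteoglycan, rose by 1.50 ± 0.22 (adjusted p = 0.0188), from 19.2 ± 0.515 to 56.5 ± 7.11 FPKM (SD). GPC1, glypican-1, fell by 1.14 on the log2 scale (adjusted p = 0.0321), from 194 ± 7.32 to 88.5 ± 18.4 FPKM. With mitochondrial transcripts left out, 3 core proteins were still called higher and none lower in H460. In A549 none of 9 was called (3 at an unadjusted p under 0.05), and in H2023 none of 9 (5 unadjusted). GPC1 passed as lower in A549 with mitochondrial transcripts left out and the rest rescaled (-1.34, adjusted p = 0.0291). Mitochondrial transcripts were at most 1.56% of the FPKM sum in A549, and the sums there ran from 9.256e+05 to 1.159e+06 before the rescaling. The most abundant cores there were SDC1 and VCAN in A549 (-0.34 and 0.22) and GPC1 and SDC1 in H2023 (-0.71 and -0.46).

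Of the other secretory pathway kinases, 1 of 7 rose in A549, none of 6 in H2023 and none of 7 in H460, with 2 and 1 at an unadjusted p under 0.05 in the last 2 lines. PKDCC, the secreted tyrosine kinase also called VLK, was the one in A549, at 93.0 ± 9.88 FPKM (SD) in the controls, 227 with siRNA 28 and 202 with siRNA 30 (log2 change 1.20 ± 0.15, SE, adjusted p = 0.0441). In H460 PKDCC was at 1.36 and 2.21 FPKM in the controls against 6.03 and 3.04 (adjusted p = 0.122), a side on which 31.1% of genes did not overlap. In H2023 its groups overlapped, at 5.85 and 3.76 against 19.9 and 5.20 FPKM. The call in A549 held in 4 of 10 alternative settings, and was lost without control library 0 (adjusted p = 0.153) or 1 (adjusted p = 0.247). The 2 most abundant in the controls were DIPK1A and FJX1 in H2023 (-0.95 and 0.09) and GASK1B and FJX1 in H460 (0.53 and 0.44).

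Around SRPK1, the SR proteins and other partners were taken. Of 14 tested in H460, 3 fell and none rose, with a list median of -0.61, while 6.86% of all genes fell and 7.12% rose. SRSF7, an SR protein, fell by 1.35 on the log2 scale (adjusted p = 0.0196), from 163 ± 7.25 to 63.5 ± 5.91 FPKM (SD). TRA2B, an SR-like splicing activator, fell by 0.91 (adjusted p = 0.0408), and LBR, the lamin B receptor, whose tail SRPK1 phosphorylates, fell by 0.99 (adjusted p = 0.0401). LBR was also lower in both NRF2 siRNA libraries of A549 and H2023, at 70.2% and 58.7% of control, without passing the test (adjusted p = 0.273 and 0.114), a pattern seen in 20.5% and 22.0% of all tested genes. With mitochondrial transcripts left out, 1 of the 14 was called lower in H460, against 3.61% of all genes. None of the 14 was called in A549 or H2023 (1 and 1 at an unadjusted p under 0.05), where the medians were -0.10 and -0.07. The most abundant were SRSF2 and SRSF1 in A549 (log2 changes -0.20 and -0.18) and TRA2B and SRSF2 in H2023 (0.04 and -0.27).

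The other kinases of SR proteins, which include the CLK family, PRPF4B, DYRK1A and SRPK3, had no member called by limma in any line (6 tested in each, 0 at an unadjusted p under 0.05 in each). Their medians were 0.11 in A549, 0.15 in H2023 and 0.17 in H460. CLK3, among the most abundant in all 3 lines, changed by 0.17, -0.21 and 0.10 in that order. DYRK1A, the other most abundant in A549 and H2023, changed by 0.03 and -0.31, and CLK2 by 0.64 in H460. SRPK3, a further paralog of SRPK1, was too low to be tested, at 0.0198 to 0.270 FPKM in the control libraries and up to 1.02 with siRNA 28 in H460. Neither these kinases nor the other secretory pathway kinases had a gene called in H460 when mitochondrial transcripts were left out.

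Around VRK1, 9 genes of BAF and the nuclear lamina were tested. In H460 2 fell and none rose, beside 6.86% of all genes that fell and 7.12% that rose. TMPO, which encodes the lamina proteins LAP2, fell by 1.57 on the log2 scale (adjusted p = 0.0171), from 188 ± 6.62 to 62.9 ± 8.06 FPKM (SD), and LMNB2, lamin B2, fell by 1.39 (adjusted p = 0.0222). Leaving out mitochondrial transcripts also gave 2 called lower. In A549 and H2023 none was called (1 and 2 at an unadjusted p under 0.05). The 2 most abundant were LMNA and TMPO in A549 (-0.20 and -0.54) and LMNA and BANF1, which encodes BAF, in H2023 (-0.55 and -0.04). The CK1 group kinases, the group to which VRK kinases belong, had none of 7 called in A549, H2023 or H460 (0, 1 and 1 at an unadjusted p under 0.05). Their medians were -0.06 in A549, -0.0027 in H2023 and -0.04 in H460. CSNK1A1 changed by -0.09, -0.0027 and 0.28, CSNK1E by -0.07 in A549, and CSNK1D by 0.25 in H2023 and 0.78 in H460 (adjusted p = 0.0586). CSNK1D was called higher in H460 with mitochondrial transcripts left out (0.93, adjusted p = 0.042).

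VRK1 is high in dividing cells, so genes of cell division are given beside it. In H460, where 6.86% of all genes fell and 7.12% rose, 5 of 10 mitotic kinases fell and none rose (list median -1.11), among them PLK1 by 1.63 (adjusted p = 0.0152), HASPIN by 1.48 (adjusted p = 0.0247), BUB1 by 1.43 (adjusted p = 0.0196) and CHEK1 by 1.23 (adjusted p = 0.0402). PLK1 drives mitotic entry, HASPIN phosphorylates histone H3, BUB1 acts in the spindle checkpoint and CHEK1 in the DNA damage checkpoint. Of 12 proliferation genes in H460, 8 fell and none rose (list median -1.32). CDC20, an activator of the anaphase promoting complex, fell by 2.07 (adjusted p = 0.0132), MCM2 by 2.03 (adjusted p = 0.0299) and MCM6, like MCM2 a helicase subunit, by 1.47 (adjusted p = 0.0263), and CCNB1, cyclin B1, by 1.52 (adjusted p = 0.0193). Fewer dividing cells and less RNA per cell cannot be told apart in bulk RNA. With mitochondrial transcripts left out, 3 mitotic kinases and 6 proliferation genes were called lower in H460, against 3.61% of all genes.

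In A549 none of the 10 mitotic kinases and none of the 12 proliferation genes was called (1 and 2 at an unadjusted p under 0.05), with medians of -0.13 and -0.22. In H2023 none was called either (3 and 2 unadjusted), with medians of -0.52 and -0.37. There the siRNAs differed for some of these genes. TOP2A changed by -1.17 with siRNA 28 and 0.08 with siRNA 30, while CCNB1 fell with both (-1.24 and -0.79). In the limma comparison of the siRNAs over all lines, 10 of the 12 proliferation genes were lower with siRNA 28 (list median -0.46). None was called, and 6 were at an unadjusted p under 0.05, against 18.2% of all genes. The most abundant were CDK1 and AURKA (-0.0059 and -0.14) and PCNA and TOP2A (-0.45 and -0.32) in A549, and PLK1 and AURKA (-0.60 and -0.80) and TOP2A and RRM2 (-0.54 and 0.02) in H2023. The part of cell division in the level of VRK1 was not tested.

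Of the marker lists, CDH1, E-cadherin, rose in H2023 by 2.50 ± 0.24 (SE, adjusted p = 0.0280, but 0.0776 without control library 0, 0.111 without control library 1 and 0.200 with no filter on low values), and COL1A1, a collagen chain, rose in H460 by 1.23 ± 0.26 (adjusted p = 0.0329), from 1.93 ± 0.178 to 5.88 ± 0.0926 FPKM (SD). Once mitochondrial transcripts were left out, the keratins KRT7 (1.17, adjusted p = 0.039) and KRT8 (1.25, adjusted p = 0.0481) were called higher in H460 and KRT8 (1.22, adjusted p = 0.0447) in H2023. In the fits of all transcripts no other marker was called, with 1 epithelial and 1 other marker in A549, 4 and 0 in H2023 and 3 and 2 in H460 at an unadjusted p under 0.05.

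**Figure D4:**
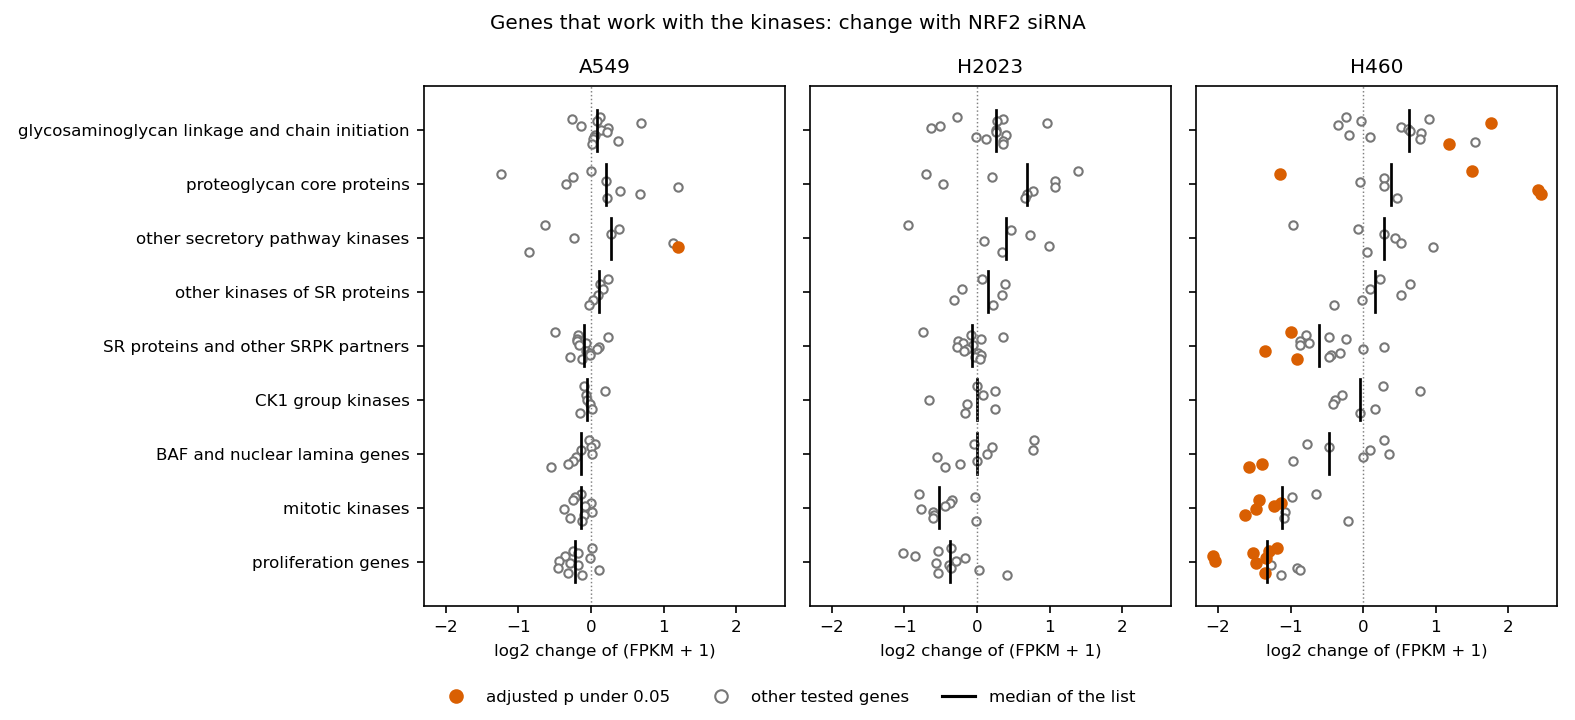
Log2 change of (FPKM + 1) with NRF2 siRNA (horizontal axis) of each tested gene of 9 gene lists in A549, H2023 and H460; filled points had an adjusted p under 0.05 and bars are list medians. In H460 the mitotic kinases have a median of -1.11 and the proliferation genes of -1.32, while in A549 only PKDCC is filled.

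The last question was which genes followed the effectors most closely. Over the 6 NRF2 siRNA libraries, each gene's log2 change from its line's control mean was set against that of the effector, and 11384 genes were ranked by the root mean square difference. As many genes are ranked over 6 libraries that share controls, a close gene is a description. Closest to FAM20B were POLR1B (0.121), DNTTIP2 (0.157), MACIR (0.178), PSMD11 (0.190) and FBXO30 (0.204). POLR1B, a subunit of RNA polymerase I, changed by -0.57 and -0.55 in A549, -0.64 and -0.96 in H2023 and -1.33 and -1.27 in H460, with siRNA 28 and 30 in that order, while FAM20B changed by -0.54 and -0.64, -0.65 and -1.17, and -1.14 and -1.29. Closest to SRPK1 were CENPX (0.141), CCDC59 (0.165), EXOSC8 (0.168), BOLA3 (0.170) and ELAVL1 (0.175). Closest to VRK1 were CCNB2 (0.169), UCK2 (0.204), PIMREG (0.212), PRC1 (0.229) and USP1 (0.244). CCNB2, cyclin B2, changed by -0.15 and -0.64 in A549, -1.06 and -1.40 in H2023 and -1.62 and -2.46 in H460, while VRK1 changed by -0.35 and -0.72, -0.95 and -1.13, and -1.44 and -2.35.

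**Figure D5:**
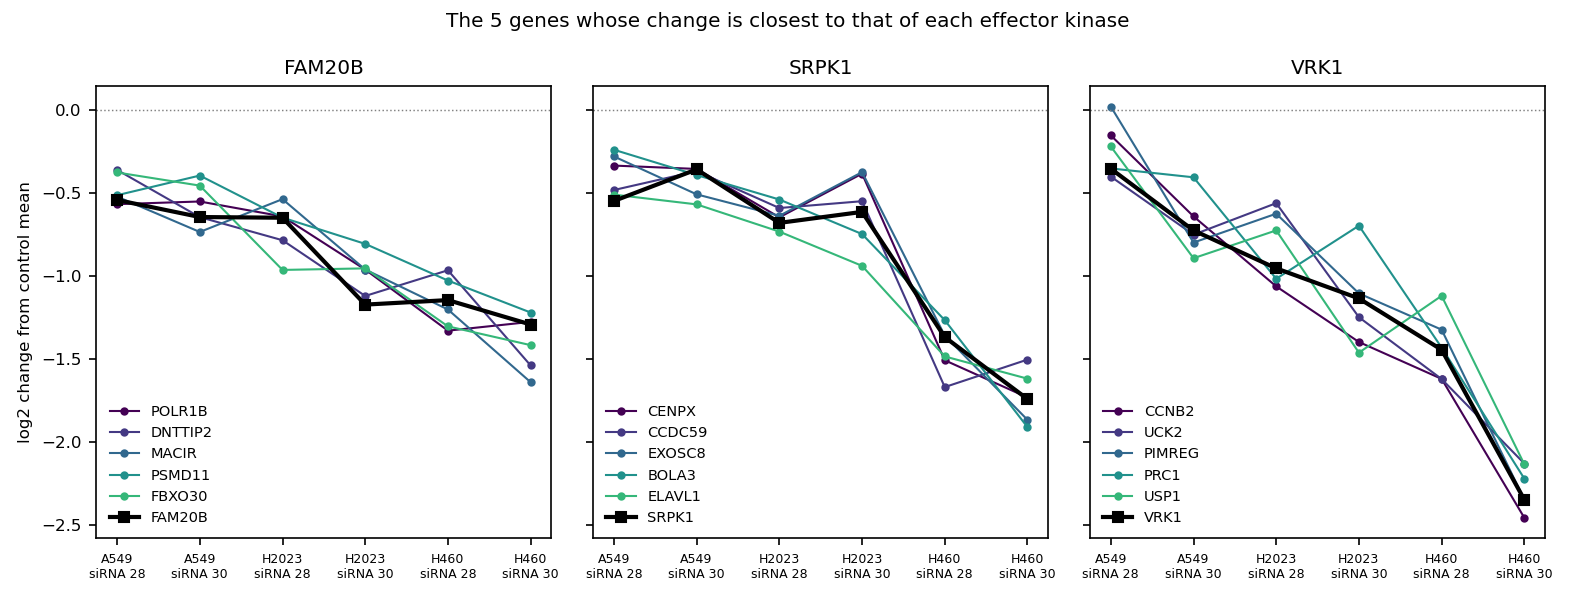
Log2 change from the control mean of the line (vertical axis) in the 6 NRF2 siRNA libraries for FAM20B, SRPK1 and VRK1 (black squares) and the 5 genes closest to each (coloured). The lines join libraries only to guide the eye; VRK1 and CCNB2 reach -2.35 and -2.46 in H460 with siRNA 30.

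Reads of near-identical copies could be divided by the authors' counting. The pseudogene FAM20BP1 was listed at 0 in all 12 libraries and SRPK2P at 0.0564 to 0.449 FPKM.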

How the data were processed

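Expression was measured by strand-specific paired-end RNA-seq of 12 libraries. FPKM values per gene were computed by the authors with Cufflinks after alignment to hg19 with TopHat, as the methods state. The submitters' processing notes also name bcl2fastq 2.15.0, cutadapt 1.15, STAR 2.5.3a, SAMtools, Cuffnorm, HTSeq, DESeq2 and R 3.2.0, without saying which made the deposited FPKM values. The deposited FPKM values were used as given, except that 12710 values under 1e-06 were set to 0. The authors' 3 tables of DESeq2 results (mean normalised count, log2 fold change, its standard error, statistic and p-values per gene) were not used. The 2 NRF2 siRNAs were taken as duplicates, as in the study, so that p-values measure the spread between 2 libraries a group, and no 2 libraries held identical values. Because no read totals were given, depth is known only relative to the first control library of a line, and no counting intervals can be given.

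Gene identifiers were matched to symbols for 96.1% of genes. In each line, genes at 1 FPKM or more in at least 2 libraries were tested on log2(FPKM + 1), a pseudocount that understates the change of low genes, with limma 3.58.1 (trend, 2 residual degrees of freedom, R 4.3.3) and Benjamini-Hochberg adjustment at 0.05. The difference between lines was an F test over 12 libraries, and the siRNAs were compared over 6 libraries with the line as a term. The steps were tested on simulated data. Tables were handled in pandas 2.3.3 and numpy 2.4.6 (Python 3.11.15), and figures drawn with matplotlib 3.10.9. Promoter sequences came from RefSeq windows on GRCh38.p14, and their positions from an exact match on GRCh37.

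The members and gene lists were chosen with earlier results of these data known. All members are named, as are at most 4 called genes of a list by size of change. Where none was called, the 2 most abundant in the control libraries of the line are named. NFE2L2, as the check of the labels, and the 5 genes closest to each effector are named too. Alternatives were a pseudocount of 0.1, no filter, no trend, mitochondrial transcripts left out, 1 fit of all libraries, a replicate block, and leaving out each library.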

Additional observations from a re-analysis of the deposited data

Results flagged for a closer look

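Of the 91 list genes tested, 4 (4.40%) differed between the lines in their change with NRF2 siRNA by the F test over 12 libraries, against 2.51% of all genes. Agrin (AGRN) changed by 1.50 on the log2 scale in H460, 1.39 in H2023 and 0.0058 in A549 (adjusted p of the difference = 0.0376). SRSF7 changed by -1.35, -0.18 and -0.07 in the same order (adjusted p = 0.0337). PLK1 changed by -1.63, -0.60 and -0.10 (adjusted p = 0.0376), and CDC20 by -2.07, -0.85 and -0.36 (adjusted p = 0.0316). The test was passed in 7 of 17 alternative settings for AGRN and in 6 of 17 for each of the others. Adjusted p over these settings ran from 0.0231 to 0.126 for AGRN, 0.0232 to 0.128 for SRSF7, 0.0228 to 0.145 for PLK1 and 0.0188 to 0.0988 for CDC20. All 4 calls were lost when any single A549 library was left out, and when any single control library of H2023 or H460 was left out. They were also lost with the replicate block (adjusted p = 0.0588 for AGRN and CDC20, 0.0590 for SRSF7, and just above 0.05 for PLK1), and those of PLK1, CDC20 and SRSF7 with mitochondrial transcripts left out (0.103, 0.0698 and 0.0984). None of the 4 paralogs tested in all lines passed this test with all libraries.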

How the results depend on the processing

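All log2 changes of FAM20B, SRPK1 and VRK1 kept their sign in each of the 10 alternatives run in each line, and every change in a paralog ratio kept its sign in all 7 of its alternatives. Nothing is read from this, because leaving out a library cannot turn the sign where groups lie apart. They did so for all of these except FAM20B to FAM20C in H2023. Some sizes moved by over 1.5 times. FAM20B to FAM20C in H2023 ran from -1.95 without the siRNA 28 library to -0.12 without the siRNA 30 library (-0.69 without control library 0), and VRK1 to VRK2 in A549 from -0.51 to -0.17 without the same siRNA libraries. The change of VRK1 in A549 was -0.35 without the siRNA 30 library, against -0.54. The counts of called genes over the whole table depended on the setting. With no filter on low values no gene was called in any line (0 in each), against 843 for the difference between lines. Without the trend H2023 had 79 calls. In 1 fit of all 12 libraries H2023 had 748 and H460 4585. Leaving out a library gave 41 to 272 calls in A549, 0 to 1532 in H2023, 0 to 3128 in H460, 3 to 770 for the difference between lines, 0 to 93 between the siRNAs and 3223 to 6352 between H2023 and H460 controls. H460 fell to 0 calls without control library 0 and to 5 without control library 1, and H2023 to 0 without control library 0. With 1 library left in a group, that library is assumed to vary like the others.

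With a pseudocount of 0.1 the change in log2 ratio was -0.85 in A549 and -2.06 in H460 for FAM20B to FAM20A, -3.72 in H460 for FAM20B to FAM20C, and -1.07 for VRK1 to VRK2 and -0.99 for VRK1 to VRK3 in H2023. With mitochondrial transcripts left out the sign turned for FAM20A in H2023 (0.012), SRPK1 (-0.026) and VRK3 (-0.012) between the siRNAs and VRK2 between the control lines (-0.11). The median over all genes then moved from -0.00834 to 0.146 in H460, from 0.0224 to -0.0699 in A549 and from 0.0299 to -0.186 between the control lines. These moves include the rescaling of all libraries to the same total. The calls were then 527 lower and 1106 higher in H460, against 922 and 957, and 4591 lower and 2556 higher between the control lines, against 3404 and 3453. Leaving out single libraries turned the sign of small changes. The change ranged from -0.022 to 0.38 for FAM20C in A549, -0.53 to 0.78 for FAM20C in H2023, -0.42 to 0.29 for FAM20A in H2023, and for SRPK2 from -0.042 to 0.035 in A549, -0.011 to 0.34 in H2023 and -0.097 to 0.24 in H460. Between the siRNAs SRPK1 ranged from -0.13 to 0.15, and between the control lines VRK2 ranged from -0.12 to 0.32.

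Library numbers were not shown to pair samples. The correlation of deviations of same-numbered libraries was 0.163 in H460, 0.312 in H2023 and -0.0321 in A549. With the number as a replicate block there were 711 calls in H2023, 3177 in H460 and 76 for the difference between lines. FAM20C in H460 stayed called with the block. Of the 5 genes named as closest to each effector, 2 to 4 remained for FAM20B and 3 to 4 for SRPK1 and VRK1 under a pseudocount of 0.1 or without mitochondrial transcripts, alternatives chosen after seeing the data. With 2 libraries a group, small changes of the paralogs could not be resolved.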
